A study of Mus musculus with 48 samples.

Results

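Polysomal RNA was compared with cytoplasmic RNA in non-treated mPDAC cells, a mouse pancreatic ductal adenocarcinoma line, to describe which mRNAs were carried on polysomes at baseline. The samples were chosen by their labels: the control cultures 1, 2 and 4, with both fractions of each culture, which are 24 of the 48 sequenced samples, 6 of the 12 libraries and 3 of the 6 cultures of the series. Each library was sequenced as 4 technical replicates, which were summed here. The labels give the genetic background of the cells as FVB/N x C57BL6 and their age as 8-week-old, for all samples alike. The control cells received no N6L, a pseudopeptide that binds nucleolin. The other 3 cultures, which were used here only for a side comparison, received N6L for 48 h. All cells were incubated with emetine before lysis, which holds ribosomes on the mRNA. One line was used throughout, so the 3 cultures repeat the culture and the fractionation, not the tumour.

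Polysome profiling separates a cytoplasmic lysate on a sucrose gradient, in which an mRNA sediments further the more ribosomes it carries. RNA of an aliquot of the lysate gives the total cytoplasmic level of an mRNA, and RNA of the pooled heavy fractions gives the level among mRNAs under translation. The quantity given for each gene is therefore the log2 ratio of its level in the polysomal library to its level in the cytoplasmic library of the same culture. Levels are CPM, the counts of a gene as a share of its library's total and scaled between libraries. A ratio of 0 means that a gene had the same scaled level in both fractions, so the position of 0 depends on the scaling. Both libraries were made from poly(A)+ RNA of a fixed input, so the ratio ranks mRNAs against each other and does not measure how much RNA was on polysomes. The pooled heavy fractions do not show how many ribosomes an mRNA carried.

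The libraries held 19519911 to 37612780 counts. Defining markers of the ductal epithelium were present, with 7 of 8 at 1 CPM or more in every library and a summed level of 7111 to 8827 CPM in the cytoplasm and 7192 to 9136 CPM on polysomes. Epcam was the exception, near 0. Markers of other cells were low. Of 8 acinar markers 5 had no count in any of the 6 libraries and only Cela1 was found, endocrine markers were limited to Pdx1, and the summed fibroblast, endothelial and immune lists each stayed under 2 CPM. Transcripts of the mitochondrial genome, which cytosolic ribosomes do not translate, made up 0.454% to 0.966% of the counts in the cytoplasm and 0.0454% to 0.116% on polysomes.

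Of the 50600 genes listed, 13120 had enough counts for a test, and 4354 of them (33.2%) differed between polysomes and cytoplasm at an adjusted p below 0.05 when each polysomal library was set against the cytoplasmic library of its own culture. Polysomes held more of 2014 genes (15.4%) and less of 2340 genes (17.8%). Decreases were larger than increases: 246 genes were lower by at least 1 on the log2 scale and 31 were higher by as much, with medians of -0.54 and 0.33 over the called genes. In 3017 genes (23%) the 3 polysomal libraries lay entirely above or entirely below the 3 cytoplasmic libraries, 1275 above and 1742 below. Without the pairing by culture, 139 genes passed the test and all were lower on polysomes. Gene lists were taken from textbook groups, and each count below is out of the members that could be tested: 309 of 400 for the Zfp genes, 34 of 39 for the secreted, matrix and adhesion proteins, 14 of 20 for the snoRNA host genes, 10 of 17 for the long noncoding RNAs, 42 of 46 for the phosphoinositide enzymes, and all or all but 1 or 2 of the others apart from the mitochondrially encoded mRNAs. Culture 4 weighed most on the count: without it 2358 genes passed, and without culture 2 there were 2721. Scaling by library size alone left 4059 genes but moved the split to 1201 higher and 2858 lower, from a share of 46.3% higher to 29.6%.

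**Figure D1:**
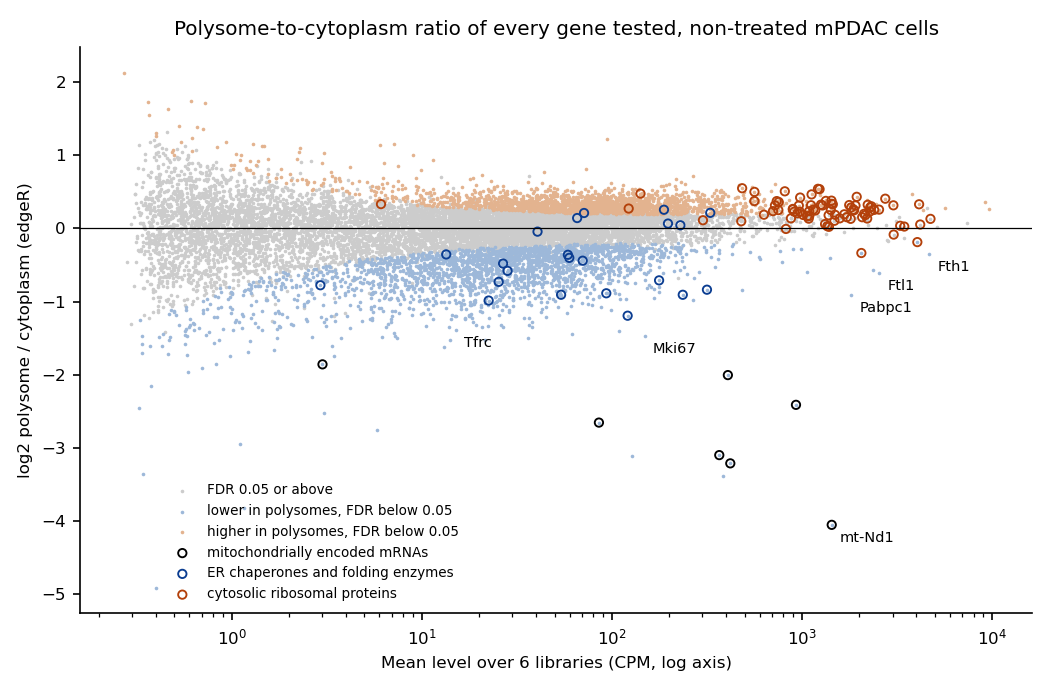
Each point is one of the 13120 genes tested, with its mean level over the 6 libraries (CPM, log axis) and its fitted log2 polysome-to-cytoplasm ratio; colours mark the 2014 genes higher and the 2340 genes lower at an adjusted p below 0.05, and rings mark 3 gene lists. Of the 3 lists, mitochondrially encoded mRNAs lie lowest, most ER chaperones lie below 0, and most cytosolic ribosomal proteins lie a little above it.

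The mRNAs that are made and translated inside mitochondria showed the largest loss of all the lists. All 7 of the 13 mitochondrially encoded mRNAs that could be tested were lower on polysomes, with a median log2 ratio of -2.66 against 0.03 over all genes tested, and the other 6 had too few counts. The transcript of mt-Nd1 (mm10 chrM:2751-3707), a subunit of respiratory complex I, stood at 3206, 1411 and 3496 CPM in the cytoplasm of cultures 1, 2 and 4 and at 213, 74.7 and 216 CPM on their polysomes. The libraries did not overlap, and the difference was 16.6-fold (log2 ratio -4.05, SE 0.08, adjusted p = 2.6e-10). Smaller losses were found for mt-Cytb at -2.41 (SE 0.10) and mt-Co1 at -2.01 (SE 0.10). Mitochondrial ribosomal RNAs fell in the same range, mt-Rnr2 at -3.39 and mt-Rnr1 at -3.11. The lysate was cleared of mitochondria by centrifugation before the gradient, and how much of the remaining signal came from intact mitochondria was not tested.

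Among the lists of nuclear protein-coding genes, that of the endoplasmic reticulum (ER) had the lowest median ratio. ER chaperones and folding enzymes assist proteins that enter the secretory pathway, and their mRNAs are translated by ribosomes bound to the ER membrane. Of 22 members, 15 were lower and 3 higher, with a median log2 ratio of -0.46. The median was below 0 in each culture, at -0.42, -0.28 and -0.76 in cultures 1, 2 and 4.

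Hsp90b1 (mm10 chr10:86690209-86705509), the HSP90 protein of the ER lumen, had 132, 254 and 122 CPM in the cytoplasm and 76.3, 97.5 and 46.0 CPM on polysomes. Every polysomal value was below every cytoplasmic value, a 2.29-fold difference (log2 ratio -1.19, SE 0.11, adjusted p = 9.2e-05). Hspa5, also known as BiP and the main HSP70 chaperone of the ER, fell by 0.84 on the log2 scale (SE 0.08, adjusted p = 0.00013). Its level differed between cultures more than between fractions, from 229 to 596 CPM in the cytoplasm and 114 to 322 CPM on polysomes, so the fractions overlapped while each culture by itself gave a lower polysomal level. Sel1l, part of the machinery that returns misfolded ER proteins for degradation, was at -0.99 (SE 0.11). The lectin chaperones Calr and Canx were both at -0.91, and the disulfide isomerases Pdia3 and P4hb at -0.89 and -0.71. Against these, the 3 members that rose were Xbp1 at 0.26, Herpud1 at 0.21 and Sdf2l1 at 0.21. Xbp1 encodes a transcription factor of the unfolded protein response. With library-wise effects of transcript length and GC content taken out, 0 of the 22 members were higher and 14 lower. In culture 4, the cytoplasmic level of Hspa5 was the lowest of the 3 cultures and the polysomal ratios of Calr (-1.39) and P4hb (-1.15) were the lowest of the 3, but single cultures have no replicates.

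Secreted, matrix and adhesion proteins, which use the same pathway, showed 17 of 34 mRNAs lower and 3 higher, with a median of -0.42. Itgb1, the beta 1 integrin subunit that joins cells to the matrix, had 60.1, 54.1 and 61.8 CPM in the cytoplasm and 27.8, 30.1 and 24.1 CPM on polysomes. All cytoplasmic libraries were above all polysomal ones, and the log2 ratio was -1.11 (SE 0.10, adjusted p = 9.2e-05). Its partner Itgav was at -0.97 (SE 0.12). Both galectins named by level went the other way, Lgals1 at 0.48 (SE 0.06) and Lgals3 at 0.27 (SE 0.07). Galectins lack a signal sequence and leave the cell by another route than the ER. Whether the route bears on these ratios was not tested. With library-wise effects of transcript length and GC content taken out, Lgals1 was at 0.17 and Lgals3 at 0.06, and neither passed the test. Among the 15 largest decreases of all genes with at least 10 CPM, the mitochondrial transcripts came first. Next were 3 genes for proteins of the ER or Golgi membranes. These were the ER thiol oxidoreductase Tmx3 at -1.63, the kinesin receptor Ktn1 at -1.52 and the carboxypeptidase Cpd at -1.52. Kif20b at -1.49, Mki67 at -1.48, Ppig at -1.44 and Smc4 at -1.40 made up the rest. With library-wise effects of transcript length and GC content taken out, Tmx3 was at -0.74, Ktn1 at -1.02 and Cpd at -1.17.

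**Figure D2:**
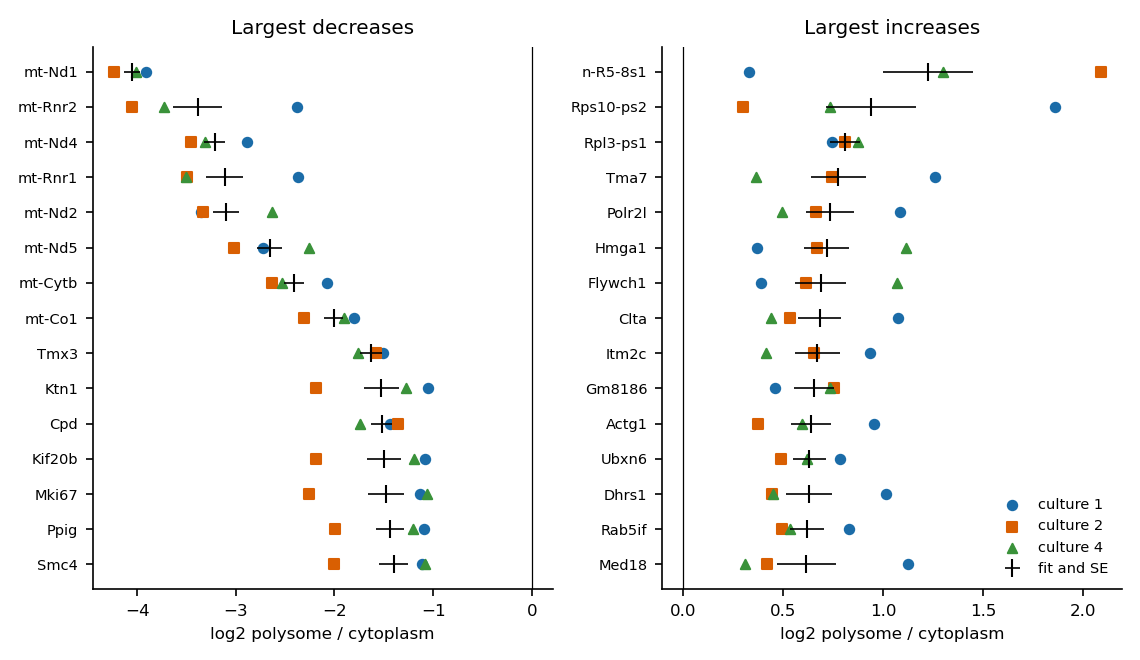
Log2 polysome-to-cytoplasm ratio in each of the 3 cultures (symbols) with the fitted value and its standard error (bars) for the 15 largest decreases and the 15 largest increases among genes past the test with a mean of at least 10 CPM and 1 direction in all cultures. The decreases reach -4.05 and the increases 1.22; the cultures spread widely for the mitotic genes Kif20b, Mki67 and Smc4, with culture 2 lowest.

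Iron metabolism offered a case in which the sequence that controls translation is known. Iron regulatory proteins bind a hairpin called the iron-responsive element. In the 5′ UTR it lies near the cap and its occupation blocks initiation, and in the 3′ UTR of the transferrin receptor it protects the mRNA from decay. Hairpins of genes measured here are printed because the sign of the ratio can be set beside the position of the element. Each line below gives 30 bases of the reference transcript (GENCODE vM21, DNA letters, transcribed strand), with the 6-base loop in capitals.

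Fth1, 5′ UTR, mm10 chr19:9982732-9982761, plus strand: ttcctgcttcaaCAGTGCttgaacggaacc
Ftl1, 5′ UTR, mm10 chr7:45459778-45459807, minus strand: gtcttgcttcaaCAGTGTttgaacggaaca
Slc40a1, 5′ UTR, mm10 chr1:45925464-45925493, minus strand: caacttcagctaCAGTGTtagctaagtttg
Tfrc hairpin 1, 3′ UTR, mm10 chr16:32631219-32631248, plus strand: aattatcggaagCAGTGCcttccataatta
Tfrc hairpin 2, 3′ UTR, mm10 chr16:32631598-32631627, plus strand: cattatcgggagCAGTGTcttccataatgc
Tfrc hairpin 3, 3′ UTR, mm10 chr16:32631663-32631692, plus strand: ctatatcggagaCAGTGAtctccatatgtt
Tfrc hairpin 4, 3′ UTR, mm10 chr16:32631710-32631739, plus strand: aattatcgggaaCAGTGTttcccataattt

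Both ferritin mRNAs, which encode the chains of the iron storage shell and share the stem sequence printed above, were lower on polysomes although they are short and abundant. Ftl1 had 2568, 2751 and 3943 CPM in the cytoplasm and 1663, 1832 and 2552 CPM on polysomes. The fractions did not overlap, and the log2 ratio was nearly the same in each culture, at -0.63, -0.59 and -0.63 (fitted -0.61, SE 0.06, adjusted p = 0.00011). Fth1 had 4823, 4414 and 6559 CPM in the cytoplasm and 4373, 3658 and 4237 CPM on polysomes. Here too all polysomal libraries were below the cytoplasmic ones, at a fitted ratio of -0.35 (SE 0.08, adjusted p = 0.0090), but the cultures differed, from -0.14 in culture 1 to -0.63 in culture 4. Nuclear-encoded mRNAs with the shortest coding sequences, up to 744 bases, had a median of 0.21 and only 4.28% of them were lower. Ferritin coding sequences measure 549 bases in Fth1 and 552 bases in Ftl1.

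Slc40a1, the iron exporter ferroportin, fell by 0.59 on the log2 scale (SE 0.14, adjusted p = 0.0095) at a mean of 8.59 CPM. The largest decrease of the list was Tfrc, the transferrin receptor, with 4 hairpins in its 3′ UTR that matched the search described below. Its level was 24.7, 18.6 and 21.9 CPM in the cytoplasm and 11.5, 5.71 and 8.35 CPM on polysomes, without overlap (log2 ratio -1.39, SE 0.12, adjusted p = 8.5e-05). Over the list, 4 of 7 mRNAs were lower and 0 were higher by edgeR, with 1 higher at an unadjusted p below 0.05 and 0 by DESeq2, and the median was -0.35.

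The hairpin was searched as C, N5, CAGTGN, N5 with 5 paired bases in the stem, on the transcribed strand only, in 1 transcript for each of 11689 nuclear protein-coding genes tested. It was found in the 5′ UTR of 14 genes (0.12%), of which 7 were lower and 2 higher, with a median of -0.20, and in the 3′ UTR of 77 genes (0.659%), of which 13 (16.9%) were lower and 7 (9.09%) higher, with a median of -0.05. Over all genes searched 19.3% were lower and 16.3% higher, so the share lower among the 3′ UTR matches was near that of all genes. Most of these matches are not known elements. Tfrc had 4 in its 3′ UTR, more than any other gene. A match to these letters is a description of the transcript, and binding was not measured.

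Among the mRNAs of the translation machinery, the ribosomal proteins were slightly higher on polysomes and a few factors were clearly lower. Ribosomal protein mRNAs begin with a pyrimidine tract, the 5′TOP motif, through which the mTOR pathway controls their translation. Of 32 small-subunit members 19 were higher and 1 lower, at a median of 0.25, and of 46 large-subunit members 27 were higher and 1 lower, at a median of 0.26. Rps27a had 827, 1064 and 1089 CPM in the cytoplasm and 1435, 1352 and 1529 CPM on polysomes, without overlap (log2 ratio 0.54, SE 0.08, adjusted p = 0.00093). Fau was at 0.54 (SE 0.07), Rpl34 at 0.55 (SE 0.07) and Rpl35 at 0.51 (SE 0.07). The members with the highest levels did not pass the test: Rpl12 was at 0.13 (SE 0.06), Rplp0 at 0.05 (SE 0.07), Rps12 at 0.04 (SE 0.06) and Rpsa at -0.08 (SE 0.06). When library-wise effects of transcript length and GC content were taken out, the medians of both lists became -0.03 and 0.05.

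Pabpc1 had the lowest ratio of 17 further 5′TOP mRNAs, which encode translation factors and related proteins. Its protein, the cytoplasmic poly(A)-binding protein, binds poly(A) tails and also an A-rich stretch in the 5′ UTR of its own mRNA, which holds back its translation. That stretch is printed with A in capitals, since few transcripts have one like it.

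Pabpc1, 5′ UTR, mm10 chr15:36608840-36608869, minus strand: gAAAAAAcccAAAAAAAAtttAcAAAAAAA

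It holds 22 A in 30 bases, and 82 of 10833 genes (0.757%) have a window as rich in their 5′ UTR. Of those 82 genes, 31 (37.8%) were lower and 5 (6.1%) higher on polysomes, with a median of -0.09, against 19.2% lower and 16.4% higher of the 10833 genes. The 82 genes were not matched to the others in GC content or length. In the lowest of 5 equal bins of genes by GC content, 50.2% were lower. What the A-rich window adds to this was not tested. Pabpc1 had 2305, 2487 and 2291 CPM in the cytoplasm and 1483, 1289 and 1023 CPM on polysomes. The fractions were far apart in every culture (log2 ratio -0.92, SE 0.09, adjusted p = 0.00012), and the ratio was -0.87 after removal of length and GC effects. Over these 17 5′TOP mRNAs, Pabpc1 included, 3 were higher and 2 lower, at a median of 0.10. All genes tested had 15.4% higher and 17.8% lower. Npm1, a nucleolar chaperone of ribosome assembly, was the second that fell, at -0.41 (SE 0.11, adjusted p = 0.012), and it did so in cultures 2 and 4 (-0.63 and -0.59) but not in culture 1 (-0.0046). Eef2, the translocase of elongation, rose to 0.26 (SE 0.06), and Eef1a1, with the highest level of the list, was at 0.08 (SE 0.06).

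The subunits of the initiation factor eIF3, which brings the small ribosomal subunit to the mRNA, had log2 ratios from -0.98 to 0.41. Of 14 members 4 were higher and 2 lower, with a median of 0.13. With length and GC effects taken out, 0 were higher and 1 lower, at a median of 0.05. Eif3a, the largest subunit, had 240, 529 and 317 CPM in the cytoplasm and 172, 203 and 150 CPM on polysomes. Cultures disagreed on its size of change, from -0.48 in culture 1 to -1.38 in culture 2 (fitted -0.98, SE 0.13, adjusted p = 0.0005), and no polysomal library reached a cytoplasmic one. Eif3j2 was lower as well, at -0.61 (SE 0.11), but it has a near-identical copy in the genome, so its reads may be divided between the copies. Eif3c was at 0.00 (SE 0.06) and Eif3h at 0.09 (SE 0.07). Of 22 other initiation factors 6 were higher and 4 lower, at a median of 0.07. The lower ones included the subunit-joining factor Eif5b at -0.95 (SE 0.10) and the scaffold Eif4g3 at -0.71 (SE 0.08), and Eif1, which guards start codon choice, was among the higher ones at 0.22 (SE 0.07). Aminoacyl-tRNA synthetases, which charge tRNAs, were 4 higher and 3 lower of 19, with Hars at 0.38 and the bifunctional Eprs at -0.34. Over all genes tested, 15.4% were higher and 17.8% lower.

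**Figure D3:**
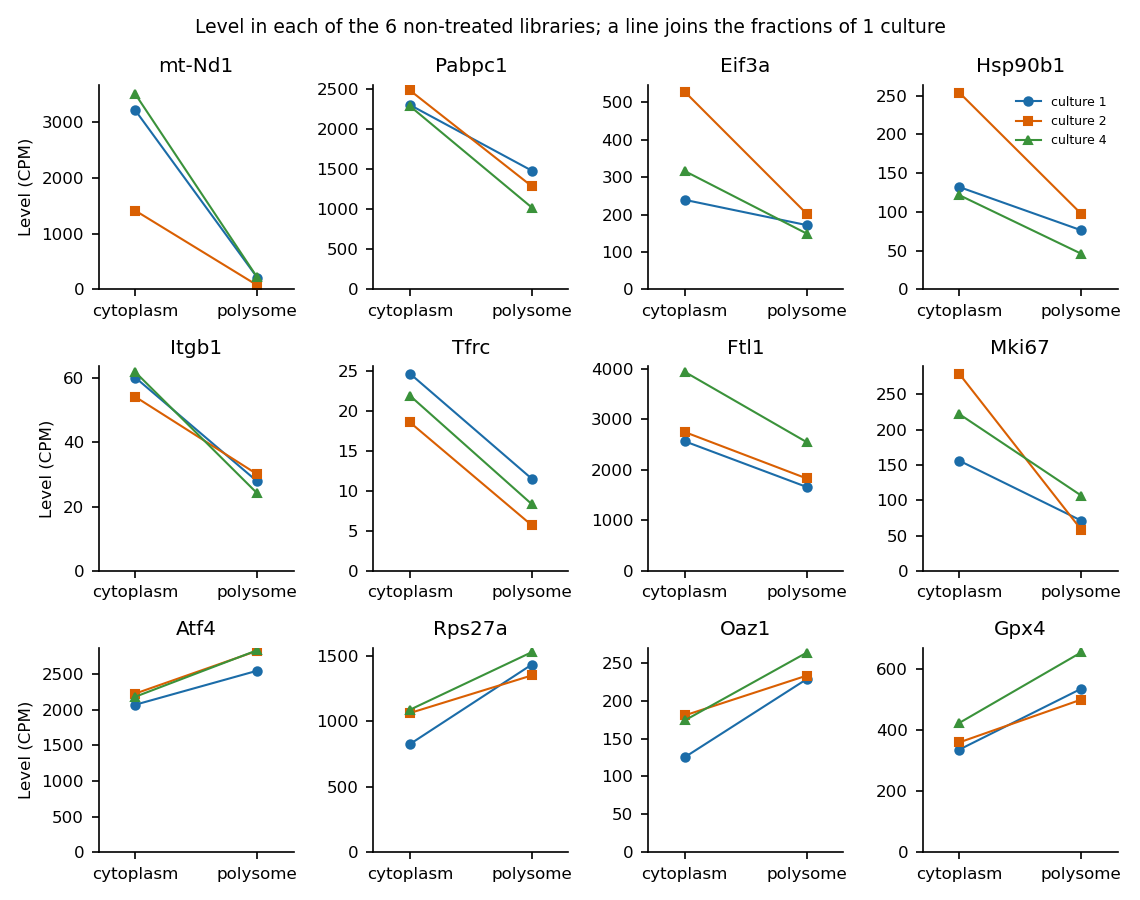
Level in CPM in each of the 6 libraries for 12 genes that the text describes; a line joins the cytoplasmic and the polysomal library of 1 culture, and every vertical axis starts at 0. In the first 8 genes all 3 lines fall, for mt-Nd1 from 1411 CPM or more to 216 CPM or less, and in the last 4 all 3 lines rise.

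The list of mRNAs under control by upstream open reading frames was not lost from polysomes as a group. Atf4, the transcription factor of the integrated stress response, had 2069, 2225 and 2180 CPM in the cytoplasm and 2545, 2824 and 2832 CPM on polysomes, all above (log2 ratio 0.34, SE 0.06, adjusted p = 0.0018). Its relative Atf5 rose by 0.32 (SE 0.07), also without overlap. Oaz1, the antizyme that destroys ornithine decarboxylase, and Odc1, that enzyme itself, were at 0.61 (SE 0.09) and 0.51 (SE 0.09). Oaz1, a member of the list as drawn up, is known for a frameshift within its coding sequence and not for an upstream frame. Ddit3, or CHOP, was at 0.32, while Azin1, Ibtk and Ppp1r15b were lower at -0.34, -0.32 and -0.32. In all, 5 of 17 members were higher and 3 lower, at a median of 0.15, against 15.4% higher and 17.8% lower of all genes tested. With length and GC effects taken out the median was 0.13, with Atf4 at 0.17 and Atf5 at 0.15 no longer past the test. Sitting on polysomes does not tell whether ribosomes were on the upstream frames or on the main one.

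Selenoprotein mRNAs, which recode a stop codon to insert selenocysteine, were 8 higher and 1 lower of 18, at a median of 0.19. Gpx4, the peroxidase that removes lipid peroxides, had 337, 361 and 425 CPM in the cytoplasm and 537, 501 and 656 CPM on polysomes, without overlap (log2 ratio 0.59, SE 0.07, adjusted p = 0.00028). Gpx1 was at 0.61 (SE 0.09) with overlapping fractions. Selenoi, a phospholipid enzyme of the ER membrane, was the member that fell, at -0.74 (SE 0.11).

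Nuclear genes for the mitochondrion went the opposite way to the genes inside it. Of 74 nuclear-encoded subunits of oxidative phosphorylation 59 were higher on polysomes and 0 lower by edgeR, also at an unadjusted p below 0.05 and by DESeq2, with a median of 0.36, and of 77 mitochondrial ribosomal proteins 58 were higher and 1 lower, at 0.30. Uqcr11, a small subunit of complex III, was at 0.58 (SE 0.07) and Mrpl12 at 0.50 (SE 0.07). These mRNAs are short, and the medians were 0.13 in both lists after length and GC effects were taken out. Proteasome subunits, 18 higher and 1 lower of 31 with a median of 0.22, and small cytosolic proteins such as thymosins and S100 proteins, 12 higher and 0 lower of 18 with a median of 0.31, moved in the same direction. With length and GC effects taken out, the proteasome list was at 0.10 with 8 higher, and the small cytosolic proteins were at 0.05 with 1 higher and 1 lower. Psmb4 was at 0.42 (SE 0.07) and S100a6 at 0.37 (SE 0.06), which became 0.05 without a call under those offsets. The CCT chaperonin, which folds actin and tubulin, had 0 of 8 subunits past the edgeR test and a median of 0.08. Of these, 2 were higher at an unadjusted p below 0.05 and 1 was higher by DESeq2.

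Metabolic and chaperone lists of the cytosol stayed near 0. The counts below stand beside 15.4% higher and 17.8% lower over all genes tested. Glycolytic enzymes were 5 higher and 1 lower of 16, with the isomerase Tpi1 at 0.44 (SE 0.06) and the hexokinase Hk2 at -0.38 (SE 0.08), while Pkm at -0.05 (SE 0.09) and Gapdh at 0.17 (SE 0.06) missed the limit. Cytosolic heat shock proteins were 1 higher and 4 lower of 16. Hsp90aa1, the inducible HSP90, was at -0.61 (SE 0.14), with -1.14 in culture 2 and -0.19 in culture 1, and the constitutive Hsp90ab1 was at 0.00 (SE 0.07). Immediate-early and short-lived regulators were 3 higher and 5 lower of 34, with Klf6 at -0.59 (SE 0.07) and nearly equal cultures (-0.59, -0.58 and -0.61), and Egr1 at -0.29 (SE 0.07). Phosphoinositide kinases and phosphatases were 3 higher and 8 lower of 42, with Pik3c2a at -0.85 (SE 0.13). With length and GC effects taken out, 5 were higher and 2 lower, and Pik3c2a was at -0.14 and lost its call (adjusted p = 0.35).

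Lists of genes of the nucleus and of cell division had medians below 0. The proliferation marker Mki67, whose protein coats mitotic chromosomes, had 156, 279 and 222 CPM in the cytoplasm and 71.3, 58.4 and 107 CPM on polysomes. No values overlapped, but culture 2 fell by 2.25 on the log2 scale and cultures 1 and 4 by 1.13 and 1.06 (fitted -1.48, SE 0.18, adjusted p = 0.00037). Kif20b, a kinesin of cytokinesis, and Smc4, a condensin subunit, were also lowest in culture 2, with fitted ratios of -1.49 and -1.40. Over the list of spindle, kinetochore and cohesin genes 24 of 47 were lower and 5 higher, at a median of -0.26. Cdk1, the kinase that starts mitosis, was among the higher ones at 0.27 (SE 0.07), and at 0.42 with length and GC effects taken out. Of 30 genes of the Fanconi anemia and recombination pathways 11 were lower and 3 higher, at a median of -0.09 that turned to 0.02 with length and GC effects taken out, with Nbn at -0.91 (SE 0.12) and Rad50 at -0.77 (SE 0.11).

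Chromatin modifiers were 33 lower and 2 higher of 59, at a median of -0.29, led by Kmt2e at -1.08 (SE 0.11) and the acetyltransferase Ep300 at -0.79 (SE 0.08). Zinc-finger genes of the Zfp series, most of them transcriptional repressors, were 112 lower and 19 higher of 309, at a median of -0.24 and with the lowest culture median in culture 2 (-0.37). Zfp948 was at -1.35 (SE 0.19) and Zfp52 at -1.34 (SE 0.18). Splicing factors of the SR and hnRNP families were 12 lower and 4 higher of 37, at a median of -0.13 (0.01 with the length and GC offsets, 7 lower and 6 higher), with Rbm39 at -0.62 (SE 0.10) and Son at -0.60 (SE 0.08). Motor and giant cytoskeletal proteins were 24 lower and 0 higher of 38 by edgeR (1 higher at an unadjusted p below 0.05, 0 by DESeq2), at a median of -0.37. Dst, a giant linker of the cytoskeleton, was at -0.69 (SE 0.11), the nonmuscle myosin Myh9 at -0.39 (SE 0.08), and Flna, as abundant as Myh9, at -0.02 (SE 0.07).

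**Figure D4:**
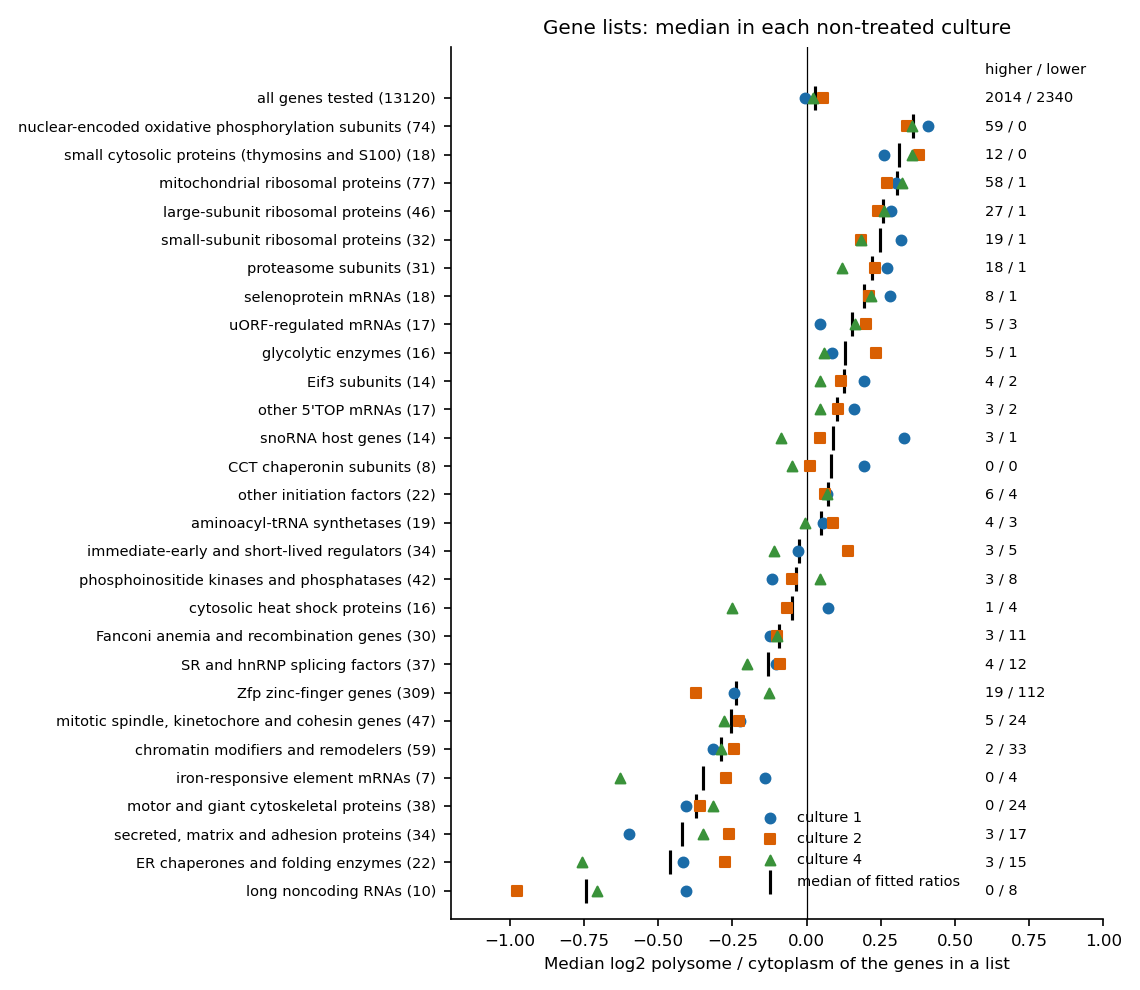
Median log2 polysome-to-cytoplasm ratio of each gene list in cultures 1, 2 and 4 (symbols) and over the fitted ratios (bars), with the number of genes tested in brackets and the counts called higher and lower at the right. Nuclear-encoded oxidative phosphorylation subunits are highest at 0.36 and long noncoding RNAs lowest at -0.74; the mitochondrially encoded list, at -2.66, is off the scale and left out.

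Noncoding RNAs annotated as lincRNA or antisense had medians slightly above 0. Of 244 genes annotated as lincRNA 7.38% were higher and 9.43% lower, with a median of 0.05, and of 246 antisense genes 4.47% were higher and 4.07% lower, with a median of 0.13. A list of well-known long noncoding RNAs had a lower median. Of its 10 members 8 were lower on polysomes and 0 higher by edgeR, by DESeq2 or at an unadjusted p below 0.05, with a median of -0.74. With length and GC effects taken out, 4 were lower and 1 higher, at -0.51. Malat1, an RNA of nuclear speckles, had 54.3, 71.7 and 42.0 CPM in the cytoplasm and 45.1, 26.2 and 29.9 CPM on polysomes, so the fractions overlapped, and culture 2 fell by 1.45 against 0.27 in culture 1 (fitted -0.73, SE 0.18, adjusted p = 0.0086). Neat1, the scaffold of paraspeckles, was at -0.77 (SE 0.12) and Firre at -0.75 (SE 0.12). Rn7sk, the small nuclear RNA that holds back the elongation factor P-TEFb, was at -2.75 (SE 0.18). Pvt1, in contrast, was at 0.06 (SE 0.08). Host genes of snoRNAs, whose spliced RNAs carry no long reading frame, were 3 higher and 1 lower of 14. Among all genes tested, 15.4% were higher and 17.8% lower. Gas5 had a log2 ratio of 0.60 in culture 1, -0.13 in culture 2 and -0.50 in culture 4, and gave no call (fitted -0.01, SE 0.15). Snhg15 rose to 0.35 (SE 0.07) and Snhg3 was lower at -0.28 (SE 0.09, adjusted p = 0.035). The polysomal pool thus still held noncoding RNA, and in poly(A)+ libraries the amount cannot be set against ribosomal RNA.

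Increases were small beside the largest decreases. Over all genes, called increases reached 2.13 and called decreases -4.91. When only genes that averaged 10 CPM or more and had 1 direction in all cultures were ranked, the first 3 were not mRNAs of known proteins: n-R5-8s1, a ribosomal RNA gene, at 1.22 (SE 0.23) with 0.33 to 2.09 over the cultures, and the pseudogenes Rps10-ps2 at 0.94 (SE 0.22) and Rpl3-ps1 at 0.81 (SE 0.08), whose reads cannot be told apart with certainty from those of Rps10 and Rpl3. Of 480 processed pseudogenes 55 (11.5%) were higher and 5 (1.04%) lower, against 15.4% and 17.8% of all genes tested. Among protein-coding genes at that level the order was Tma7, a short protein linked to ribosomes, at 0.78 (SE 0.14), the RNA polymerase subunit Polr2l at 0.73 (SE 0.12) and the chromatin protein Hmga1 at 0.72 (SE 0.11). Hmga1 had 232, 216 and 160 CPM in the cytoplasm and 300.2, 344 and 347 CPM on polysomes, without overlap. Actg1, cytoplasmic gamma actin, was at 0.64 (SE 0.10) with 118 to 282 CPM in the cytoplasm and 229 to 365 CPM on polysomes, so its fractions overlapped across cultures.

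Length and base composition ran through these lists. Over 11689 nuclear protein-coding genes, put in 5 equal bins by transcript length, the median log2 ratio fell from 0.23 in the shortest to -0.25 in the longest. In the shortest bin 41.7% were higher and 1.92% lower, and in the longest 2.65% were higher and 42.5% lower. Coding length gave the same order, with bin medians of 0.21, 0.10, 0.01, -0.06 and -0.21, and the shortest bin stood above the longest by 0.41 ± 0.05 (SD, n = 3 cultures). The length of the 3′ UTR followed in the same direction, from 0.13 to -0.18, and the 5′ UTR hardly changed the median, from 0.07 to -0.05.

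GC content of the transcript separated genes as much as length. The bin with the lowest GC content had a median of -0.35 with 50.2% of genes lower, and the highest had 0.14 with 25.4% higher. Cultures differed here: from the lowest to the highest bin the medians ran from -0.25 to 0.03 in culture 1, from -0.46 to 0.21 in culture 2 and from -0.29 to 0.17 in culture 4. With both properties, long transcripts of low GC content had a median of -0.53 with 70.3% lower, and short transcripts of high GC content had 0.28. Length and GC content are properties that library preparation and sequencing also respond to, and their part in these ratios was not tested.

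**Figure D5:**
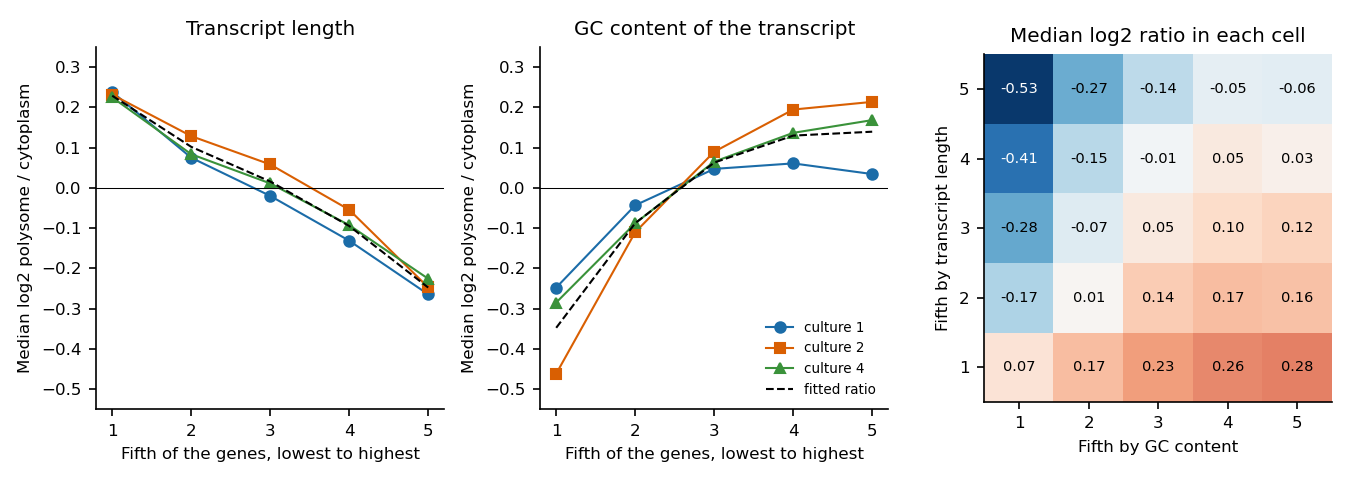
Median log2 polysome-to-cytoplasm ratio in 5 equal bins of nuclear protein-coding genes by transcript length and by GC content, in cultures 1, 2 and 4 (symbols) and over the fitted ratios (dashed), and the fitted median in each combination of bins (colours and numbers). The length profile is alike in the 3 cultures, the GC profile is steepest in culture 2, and the cells run from -0.53 to 0.28.

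Taking these effects out, with offsets per library, left 2591 genes past the test, 1423 higher and 1168 lower. List medians then fell into those that shrank and those that did not. Motor and giant cytoskeletal proteins went from -0.37 to -0.06, chromatin modifiers from -0.29 to -0.07, mitotic genes from -0.26 to -0.08 and zinc-finger genes from -0.24 to -0.06. The ER chaperones were at -0.39 with 14 of 22 still lower, the secreted, matrix and adhesion proteins at -0.32 with 18 of 34 lower, the iron-responsive mRNAs at -0.34 with 3 of 7 lower, and the selenoproteins at 0.22. Ftl1 and Fth1 were further down, at -0.90 and -0.54. Medians of 5 lists changed sign: those of the small-subunit ribosomal proteins (0.25 to -0.03), the snoRNA host genes (0.09 to -0.10), the Fanconi anemia and recombination genes (-0.09 to 0.02, with 5 lower), the splicing factors (-0.13 to 0.01) and the phosphoinositide enzymes (-0.03 to 0.09).

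The same comparison in N6L-treated cultures, which share no library with the controls, gave 2177 genes higher (16.2%) and 2898 lower (21.5%) of 13467. Of the genes called higher in non-treated cells, 2010 were tested there, 97.1% were above 0 and 64.8% were called higher, against 51.3% of all genes above 0. Of those called lower, 2331 were tested, 97.4% were below 0 and 78.7% were called lower, against 48.7% of all genes below 0. The ratios were wider with N6L, with medians of 0.66 and -0.97 for these 2 sets, a difference in width that was not tested. In a single fit of all 12 libraries with culture as a block, 0 of 13889 genes (0%) had a ratio that differed between N6L and non-treated cells by edgeR at the adjusted limit (smallest adjusted p = 0.196), while 2996 genes had an unadjusted p below 0.05. mt-Nd1 was at -4.05 in non-treated and -2.85 in N6L-treated cells, Pabpc1 at -0.92 and -1.07, Tfrc at -1.39 and -1.19, and Ftl1 at -0.61 and -0.27.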

How the data were processed

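Cytoplasmic and polysomal poly(A)+ RNA was sequenced with a stranded kit. The authors deposited raw counts, not normalized: whole numbers of reads per Ensembl gene, for each technical replicate. The submitters' processing notes name bcl2fastq 2.18.0.12, STAR, HTSeq 0.5.3 and mm10; for the annotation release, the strand setting and multi-mapping reads, the choices were not given in the sources used here. Among 50600 genes listed, 50376 were found in GENCODE vM21, which gave symbols, coordinates, transcript length (the transcript with the longest coding sequence) and GC content, and 0 rows named no gene.

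The 4 technical replicates of a library differed by little more than chance in sampling (in non-treated libraries the chi-square over its degrees of freedom was 1.02 to 1.04) and were summed. Genes were filtered with filterByExpr, scaled by TMM and tested with edgeR 4.0.16 (R 4.3.3, glmQLFit and glmQLFTest) on the 6 non-treated libraries, with culture as a block and p-values adjusted by the Benjamini-Hochberg method at 0.05. The cultures pair the fractions, since both came from one lysate: deviations of the 2 libraries of a culture from their group means correlated by 0.40, 0.51 and 0.71. Ratios per culture are differences of log2 CPM with a prior count of 2, and CPM values printed are TMM-scaled. Nothing states that the cultures were grown independently, so p-values measure the spread between these libraries. Counting error is small at these depths and was not printed separately. DESeq2 1.42.0, other scalings and filters, removal of each culture, and offsets per library from smooth functions of length and GC content (mgcv 1.9.3) were alternatives. The fit was tested on simulated data.

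Genes named were the 15 largest decreases and increases past the test with a mean of at least 10 CPM and 1 direction in all cultures, and in each list the 2 with the highest mean level and the 2 with the largest ratio. Other list members, and the genes of the sequence searches, were named after their values were seen. The comparison and the lists were chosen with earlier results of these data known. Figures were drawn with matplotlib 3.10.9. Some list members are not reported here.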

Additional observations from a re-analysis of the deposited data

Results flagged for a closer look

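In 3 of the named genes, every non-treated culture had a ratio on one side of 0 and every N6L-treated culture on the other. This was counted over the named genes alone, so the share over all genes is not known. The position of 0 depends on the scaling, and the non-treated ratios of Rpsa and Eef1a1 given below were small. Snhg3, a host gene of snoRNAs, was lower on polysomes in non-treated cultures (log2 ratios -0.16, -0.22 and -0.44 in cultures 1, 2 and 4) and higher with N6L (0.27, 0.45 and 0.94), a difference of 0.833 (N6L minus non-treated, SE 0.20). Rpsa, a small-subunit ribosomal protein, ran from -0.09 to -0.07 without N6L and from 0.11 to 0.71 with it, a difference of 0.509 (SE 0.16). Eef1a1, an elongation factor, ran from 0.03 to 0.16 and from -0.24 to -0.01, a difference of -0.204 (SE 0.13). None of the 3 differences passed the edgeR test of the difference over all genes (adjusted p = 0.196, 0.196 and 0.359). Groups of 3 cultures are too small for a test of single outlying libraries.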

How the results depend on the processing

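The count of genes past the test, 4354, depended most on the pairing. Without the replicate block 139 genes passed with edgeR and 712 with DESeq2, and in a fit of all 12 libraries there were 203 with the block and 29 without it; the spread of the N6L libraries, estimated together with that of the controls there, was larger (biological coefficient of variation 0.18 against 0.0835). Leaving out each culture in turn gave 2358 to 3756 genes, with fewer libraries in each fit. Offsets for length and GC content gave 2591, an adjusted limit of 0.01 gave 2400, and a minimum absolute log2 ratio of 0.5 or 1 gave 1498 or 277. DESeq2 with the block (3631), RLE scaling (4489), scaling to library size alone (4059), an unfiltered table (4428), a minimum of 10 counts per library (4359), 1 technical replicate (3400) and an adjusted limit of 0.1 (5529) stayed within 1.5 times. Of 110 named genes past the test, 87 lost the call without the block, 18 without culture 4, 14 without culture 2, 6 without culture 1, 24 with the offsets, 8 with library size alone and 4 with DESeq2 and the block; 0 lost it with RLE scaling or either other filter. Those lost with the offsets include Rps10-ps2, Eif3j2, Eif1, Snhg15, Malat1, Selenoi, Herpud1, Lgals1, Lgals3 and Eprs. Directions turned with the offsets for 1 of the 110, Hspa4l (-0.63 to 0.072), and for 11 of the 26 named genes that had not passed the test. Of these 11, Rps12 (0.04 to -0.29) and Zfp106 (-0.10 to 0.22) then passed, while Gapdh (0.17 to -0.06), Rplp0 (0.05 to -0.15), Rpl12 (0.13 to -0.08), Eif3h (0.09 to -0.10) and Flna (-0.02 to 0.15) are among those that did not; the cause was not tested. Medians of 5 lists changed sign with the offsets, of 3 without culture 1, of 2 without culture 4, and of 1 with library size alone, which was that of the aminoacyl-tRNA synthetases; those of the other lists kept theirs under these settings. The coding-length difference was 0.42 with either choice of transcript. In the N6L cultures 5075 genes passed, 5149 without culture 3 and, in a fit added after the data were seen, 4467 without the replicate block. The test of the difference between treatments called 0 genes with the block and, also added later, 0 without it. Depth limits genes of a few CPM: of those in the lowest bin by mean level, 1.84% were called higher and 11.9% lower. In the highest of the 5 bins 37.3% were called higher and 11.7% lower, with a median of 0.14 against -0.08 in the lowest. Lists of abundant mRNAs were not compared with genes of their own level.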
